A study of Mus musculus with 12 samples.

Results

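The genes described here are 10 genes of the mTOR and AMPK nutrient-sensing system: Mtor, Rptor and Deptor of the mTOR complexes, Rheb, Tsc1 and Tsc2 of the switch that turns mTORC1 on, Prkaa1 and Prkaa2 of AMPK, and the stress-induced inhibitors Sesn2 and Ddit4. They were chosen by their symbols as known parts of this system, with no threshold on measured values, and matched by symbol to the deposited expression table. All 10 were found among its 21878 genes, and all 10 were among the 10675 genes that passed a filter on low values. The measurement was RNA-seq of alveolar type 2 (AT2) cells, which line the lung alveolus and secrete its surfactant, sorted from mice.

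mTOR is a protein kinase that works in 2 complexes. In mTORC1 it is joined by raptor, the product of Rptor, which brings substrates to the kinase. mTORC1 is recruited to the lysosome by the Rag GTPases when amino acids are plentiful, is switched on there by the small GTPase Rheb, and promotes protein and lipid synthesis while holding autophagy back. The TSC complex, built from the Tsc1 and Tsc2 products, keeps Rheb inactive. AMPK is the kinase that responds to low cellular energy, and it restrains mTORC1 through Tsc2 and raptor and favours autophagy. Much of this control acts on the proteins, through phosphorylation, so that transcript levels do not measure the activity of either kinase.

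The 12 libraries fell into 4 groups of 3, all from C57BL/6 mice: AT2-PBS and AT2-BLM from mice labelled wild type, and Atg5-/- AT2-PBS and Atg5-/- AT2-BLM from mice that lacked Atg5, an essential autophagy gene, in the lung epithelium. BLM is bleomycin, a DNA-damaging drug used to injure the lung, given into the trachea at 2 U/kg. PBS was the vehicle. Cells were collected at day 14, and the methods name male mice of 8 to 12 weeks for BLM injury. The wild-type mice are elsewhere in the study called Atg5 f/f, which carry the floxed gene but no Cre. The deletion was driven by Nkx2.1-Cre, which acts in lung epithelium from development onwards and not in AT2 cells alone. Cells were sorted as negative for CD31, CD34, CD45, CD24 and Sca-1 and positive for EpCAM. Neither the labels nor the methods say whether 1 library came from 1 mouse or from several, so the spread between the 3 libraries of a group may be technical in part.

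Expression was given as FPKM, fragments scaled by exon length and library size, so that levels can be compared between genes of different length. Differences were tested with limma on log2(FPKM + 1) over all 10675 genes at once. A gene is called here when its unadjusted p was under 0.05 and its fold change was at least 1.4, the criterion of the study, and the Benjamini-Hochberg adjusted p over all genes is given beside it. Folds are on the log2(FPKM + 1) scale, which understates the change of genes near 1 FPKM. With 3 libraries against 3 an exact permutation test of a single gene cannot go below p = 0.1.

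Some facts of the libraries touch the results. Atg5 itself was at 12.5, 6.01 and 11.5 FPKM in AT2-PBS, 11.1, 9.97 and 10.3 in AT2-BLM, 9.24, 6.72 and 10.1 in Atg5-/- AT2-PBS and 8.84, 8.46 and 8.37 in Atg5-/- AT2-BLM, and passed the test in neither genotype comparison. A gene-level FPKM sums all exons and does not check the loss of the floxed part. The summed FPKM of 9 AT2 markers was 23920 to 41360 in every library. The defining AT2 marker Sftpc was listed at 0 in 11 libraries and at 112570 FPKM, 20.5% of the library's sum, in AT2-BLM replicate 2. The Atg5-/- AT2-PBS libraries carried more transcripts of several other cells than AT2-PBS: 6 of 7 tested leukocyte markers were called higher (summed FPKM 543.9 to 1396 against 29.7 to 114.8), as were 7 of 7 macrophage, 5 of 5 fibroblast, 3 of 4 airway, 6 of 6 liver and 5 of 5 skeletal muscle genes. Of endothelial genes 1 of 4 and of islet genes 0 of 4 were called higher, beside 14.1% of all genes. Summed islet transcripts were 0 to 3162 FPKM in AT2-PBS and 0 to 3160 FPKM in Atg5-/- AT2-PBS, so both groups held foreign transcripts. Y-linked genes were near 0 in 7 libraries and expressed in 5, with both kinds in 3 of the 4 groups. All 3 Atg5-/- AT2-PBS libraries were of the first kind. So were AT2-PBS replicate 1, AT2-BLM replicates 1 and 2 and Atg5-/- AT2-BLM replicate 1. Y-linked genes near 0 in injured libraries are at odds with the male sex that the methods give. Sex and genotype may be mixed in Atg5-/- AT2-PBS against AT2-PBS.

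Rheb was the most abundant of the 10 transcripts and Tsc1 the least. Rheb averaged 44.4 FPKM over the 12 libraries and Sesn2 25.6 FPKM. Deptor averaged 9.34 FPKM and Tsc2 8.44 FPKM. The remaining 6 genes were much lower, with means of 2.51 for Ddit4, 2.42 for Prkaa1, 1.99 for Mtor, 1.42 for Rptor, 1.32 for Prkaa2 and 1.19 FPKM for Tsc1. In each group the lowest Rheb value was above the highest Sesn2 value, and Sesn2 was above Deptor in all 12 libraries, by 1.34 to 8.44 times. Deptor and Tsc2 overlapped over the 12 libraries, and each of the 6 low genes overlapped with its neighbours in this order. None of the 10 genes was listed at 0 in any library. The files hold no read counts, so the depth behind a value is unknown, and the sizes of the smallest steps between FPKM values put the relative depth of the libraries between 1.00 and 1.15.

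**Figure D1:**
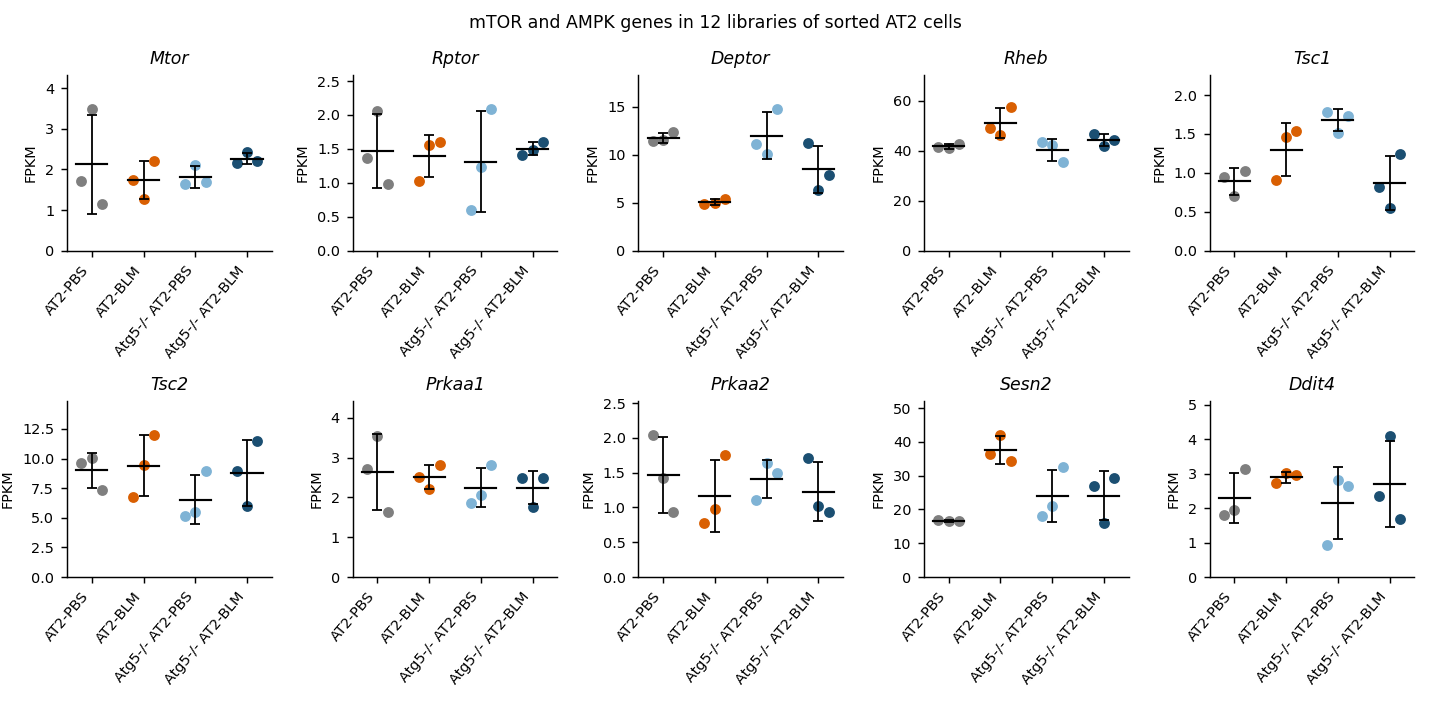
FPKM of the 10 genes in each of the 12 libraries (points), by group, with the mean (wide bar) and SD (error bars, n = 3), each panel on its own linear axis from 0. The 3 AT2-BLM points of Deptor sit at 4.84 to 5.42 FPKM and those of Sesn2 at 34.2 to 42.1 FPKM, apart from every AT2-PBS point, while the points of Mtor, Rptor, Prkaa1, Prkaa2 and Ddit4 overlap between these groups.

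BLM injury of wild-type AT2 cells, AT2-BLM against AT2-PBS, moved 2 of the 10 genes: the inhibitor Sesn2 rose and the inhibitor Deptor fell. Over all genes 28.4% were called in this comparison, 20.6% higher and 7.77% lower, so 2 of 10 is not a share above the background. Both also had an adjusted p under 0.05, as did 17.8% of all genes. The 10 genes had a median log2 change of 0.01, beside 0.17 over every gene tested. Of 9 AT2 markers 3 were called lower and 1 higher. Markers of other cells also differed: 4 of 7 leukocyte (summed FPKM 117.3 to 177.6 against 29.7 to 114.8), 5 of 6 liver and 3 of 5 alveolar type 1 genes were called higher and 3 of 4 airway genes lower, and their part in the changes below was not tested.

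Sesn2 encodes sestrin 2, a stress-induced protein that binds leucine, restrains mTORC1 through the GATOR complexes and is a known target of p53, ATF4 and NRF2. It lies at 132047947 to 132066416 on the minus strand of chromosome 4 (mm9), and its FPKM covers the exons of the whole gene. Its level was 17.0, 16.4 and 16.5 FPKM in AT2-PBS and 36.4, 42.1 and 34.2 FPKM in AT2-BLM. Every injured library was thus above every uninjured one, and the AT2-PBS values lay within 1 FPKM of each other. The log2 fold change was 1.12 ± 0.24 (SE), a 2.18-fold rise, with an adjusted p of 0.0098 in limma. In all 15 alternative settings the adjusted p stayed under 0.05, and without AT2-BLM replicate 2, the library with Sftpc, the log2 fold change was 1.04 (adjusted p = 0.038).

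The promoter of Sesn2 is shown because it was the member that rose most. It is given as the 250 bases before the RefSeq start, chr4:132510457-132510706 in GRCm38.p6, minus strand, with the motif TGACNNNGC, the core of the antioxidant response element, in capitals.
Sesn2: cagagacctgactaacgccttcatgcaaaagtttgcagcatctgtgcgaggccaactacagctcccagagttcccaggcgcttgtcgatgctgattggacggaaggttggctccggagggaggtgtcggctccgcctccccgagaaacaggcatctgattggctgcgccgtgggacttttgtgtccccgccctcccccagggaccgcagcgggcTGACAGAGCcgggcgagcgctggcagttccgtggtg
The match starts 36 bases before the start site. 5 motifs were searched on both strands of 300-base windows (250 before to 50 after the start): CACGTG (the E-box bound by TFEB and others), TGATGNAA (the C/EBP-ATF composite bound by ATF4), TGACTCA (AP-1), TGACNNNGC and the p53 decamer. A run of letters can match both TGACTCA and TGACNNNGC. Of 32544 RefSeq promoter windows, 12.4% held TGACNNNGC, 7.17% CACGTG, 3.91% TGATGNAA, 5.19% TGACTCA and 8.36% the p53 decamer. RefSeq gave a window for 9 of the 10 genes, not for Deptor. The only other window with a match was that of Rheb, with CACGTG starting at -96 and TGACNNNGC at -247 and, on the opposite strand, at -103. A match is a run of letters and not a site shown to be bound.

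Deptor encodes an inhibitory partner of mTOR found in both mTOR complexes. It lies at 54943872 to 55090826 on the plus strand of chromosome 15 (mm9). Its level was 11.4, 11.6 and 12.3 FPKM in AT2-PBS and 4.84, 4.99 and 5.42 FPKM in AT2-BLM. The groups did not overlap, and the SD was 0.51 FPKM in the first and 0.30 FPKM in the second (n = 3 each). Deptor fell by 1.07 ± 0.20 (SE) on the log2 scale, to 0.476 of its uninjured level on the FPKM + 1 scale, with an adjusted p of 0.0051 in limma. The adjusted p stayed under 0.05 in all 15 alternatives, with log2 changes from -1.27 to -1.04. In bulk libraries fewer cells that carry a transcript and less of it per cell cannot be told apart, for Deptor as for every gene below.

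Rheb, the GTPase that activates mTORC1, was at 41.5, 40.9 and 42.9 FPKM in AT2-PBS, and its AT2-BLM values were 49.1, 46.3 and 57.7 FPKM. The injured libraries were all above the uninjured ones, but the log2 fold change of 0.28 (95% confidence interval -0.01 to 0.56) did not pass the test (adjusted p = 0.157 in limma). It came down to 0.03 with quantile normalization, 0.10 with median-ratio scaling and 0.04 with scaling to Cdh1, close to the shift of all genes. Group ranges were apart for 3 of the 10 genes, Sesn2, Deptor and Rheb, against 40.2% of all genes tested.

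**Figure D2:**
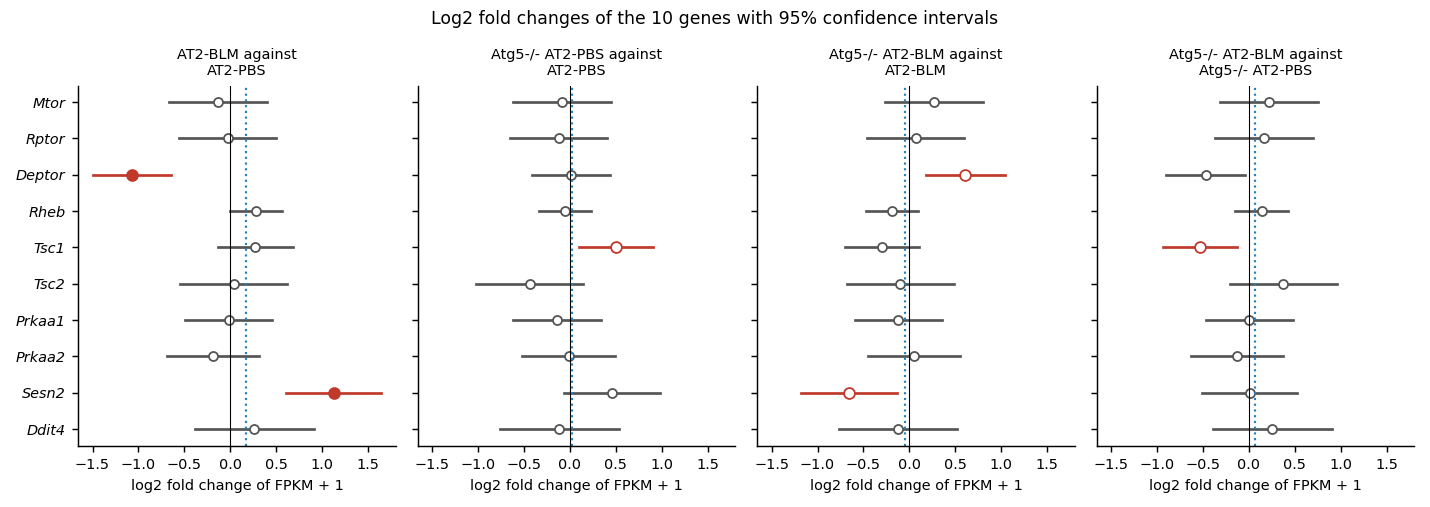
Log2 fold changes of FPKM + 1 with 95% confidence intervals from limma for the 10 genes (rows) in 4 comparisons (panels). Red points passed an unadjusted p under 0.05 and a fold of 1.4, filled ones also an adjusted p under 0.05, and the dotted blue line is the median change of all 10675 genes. Only Sesn2 and Deptor in AT2-BLM against AT2-PBS are filled. In Atg5-/- AT2-BLM against AT2-BLM the same genes lie on the opposite sides of 0.

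Atg5 loss during injury, Atg5-/- AT2-BLM against AT2-BLM, was the comparison in which Deptor was higher and Sesn2 lower. Both were called by the criterion of the study, which called 5.16% of all genes here (2.04% higher, 3.12% lower), and neither had an adjusted p under 0.05, which 1 of the 10675 genes (0.00937%) reached. Group ranges were apart for these 2 genes, beside 13.4% of all genes. AT2-BLM is the injured group of the comparison above and the control of this one, so a value that is extreme in these 3 libraries moves the folds of both comparisons in opposite directions. For that reason the values are set side by side and their opposite signs are not read as a result.

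Deptor was at 11.2, 6.36 and 7.88 FPKM in Atg5-/- AT2-BLM, above the 4.84 to 5.42 FPKM of AT2-BLM in every library. The log2 fold change was 0.61 ± 0.20 (SE), with an adjusted p of 0.607 in limma. Replicate 1 was the highest of these libraries and lay within the range of AT2-PBS plus Atg5-/- AT2-PBS (10.1 to 14.8 FPKM), while the others lay below it. Without this library the log2 fold change was 0.41 and was no longer called.

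Sesn2 was at 27.0, 16.0 and 29.3 FPKM in Atg5-/- AT2-BLM, below the 34.2 to 42.1 FPKM of AT2-BLM in every library. The log2 fold change was -0.66 ± 0.24 (SE), with an adjusted p of 0.618 in limma. Replicate 2, at 16.0 FPKM, was the lowest of all 12 libraries. Without it the log2 fold change was -0.40, and without AT2-BLM replicate 2 it was -0.58, and neither was called. Among markers, 1 of 7 macrophage and 1 of 4 airway genes were called higher in this comparison and 2 of 5 alveolar type 1 and 1 of 5 fibroblast genes lower, with 0 of 7 leukocyte and 0 of 9 AT2 genes called, and their part in the Deptor and Sesn2 differences was not tested.

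The other 8 genes were not called in Atg5-/- AT2-BLM against AT2-BLM. Rheb was at 46.8, 42.0 and 44.3 FPKM in Atg5-/- AT2-BLM, a log2 difference of -0.19 from AT2-BLM (95% confidence interval -0.48 to 0.09). Mtor was at 2.16, 2.43 and 2.22 FPKM, a log2 difference of 0.27 with a wide interval of -0.27 to 0.80. The interval for Mtor includes a rise of 1.4-fold.

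Atg5 loss without injury, Atg5-/- AT2-PBS against AT2-PBS, called 1 of the 10 genes, Tsc1, beside 19.3% of all genes (14.1% higher, 5.16% lower). None of the 10 had an adjusted p under 0.05 in limma, as 11.2% of all genes did. Tsc1 encodes hamartin, the subunit that stabilises the TSC complex, and lies at 28496748 to 28546687 on the plus strand of chromosome 2 (mm9). It was at 0.95, 0.70 and 1.03 FPKM in AT2-PBS, and its Atg5-/- AT2-PBS values were 1.79, 1.51 and 1.73 FPKM. The groups did not overlap, and the log2 fold change was 0.50 ± 0.19 (SE), with an adjusted p of 0.123 in limma. The call was lost with quantile normalization (0.21), with median-ratio scaling (0.49), without AT2-PBS replicate 2 (0.43) and without Atg5-/- AT2-PBS replicate 1 (0.47). With scaling to Cdh1, which moved the median of all genes to 0.34, the Tsc1 difference was 0.76 (adjusted p = 0.0165 in limma). The transcripts of leukocytes, macrophages, airway and liver were higher in the same 3 libraries, 4 of 9 AT2 markers were called lower and 1 higher, and their part in the Tsc1 value was not tested.

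Sesn2 was at 18.0, 21.1 and 32.7 FPKM in Atg5-/- AT2-PBS, all above the 16.4 to 17.0 FPKM of AT2-PBS. Replicate 3 stood well above the other libraries, and the log2 difference of 0.46 (95% confidence interval -0.06 to 0.98) was not called. It was called with scaling to Cdh1 (0.84, adjusted p = 0.0141 in limma), which raised the median of all genes to 0.34 in this comparison. It was also called without Atg5-/- AT2-PBS replicate 1 (0.63), and it came down to 0.22 without Atg5-/- AT2-PBS replicate 3. Deptor was at 11.2, 10.1 and 14.8 FPKM in Atg5-/- AT2-PBS, on both sides of the AT2-PBS values, with a log2 difference of 0.01 (95% confidence interval -0.42 to 0.44). Group ranges were apart for Tsc1 and Sesn2, 2 of 10, beside 28.9% of all genes.

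BLM in cells without Atg5, Atg5-/- AT2-BLM against Atg5-/- AT2-PBS, called 1 of the 10 genes, Tsc1, beside 18.4% of all genes (7.66% higher, 10.7% lower). None of the 10 had an adjusted p under 0.05 in limma, as 8.67% of all genes did. Tsc1 was at 0.82, 0.56 and 1.25 FPKM after BLM, below all Atg5-/- AT2-PBS libraries, with a log2 change of -0.53 ± 0.19 (SE) and an adjusted p of 0.108 in limma. The call was lost with quantile normalization (-0.38) and without Atg5-/- AT2-BLM replicate 2 (-0.40). With scaling to Cdh1, which moved the median of all genes to -0.32, the Tsc1 change was -0.83 (adjusted p = 0.014 in limma). The Atg5-/- AT2-PBS libraries, which are the high ones for Tsc1, are the control of this comparison and the test group of the one before. After BLM 6 of 7 leukocyte, 7 of 7 macrophage, 5 of 5 fibroblast and 4 of 4 airway markers were called lower, beside 10.7% of all genes. So were 4 of 6 liver, 4 of 5 skeletal muscle, 3 of 4 islet and 1 of 4 endothelial genes. Of alveolar type 1 genes 4 of 5 and of AT2 genes 1 of 9 were called higher. The part of these markers in the Tsc1 change was not tested. Sesn2 differed by 0.01 on the log2 scale (95% confidence interval -0.51 to 0.53), and the 2 groups overlapped. Deptor changed by -0.47 ± 0.20 (SE) with an adjusted p of 0.183 in limma, a fold under the 1.4 criterion, with overlapping groups. Deptor was called lower in 6 of the 15 alternative settings, and its log2 change ran from -0.90 to -0.31 over all 15. Only scaling to Cdh1 gave it an adjusted p under 0.05 (-0.90, adjusted p = 0.00489 in limma). Group ranges were apart for Tsc1 and Mtor, beside 24.9% of all genes. Mtor was higher after BLM by 0.22 (95% confidence interval -0.32 to 0.76) and was not called.

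The difference between the BLM effects in Atg5-/- and wild-type AT2 cells was tested itself, as the interaction term of the same fit. It was called for Sesn2 and Tsc1, 2 of the 10 genes, beside 20.2% of all genes (5.02% higher, 15.2% lower), and no gene of the 10 had an adjusted p under 0.05 in limma, as 7.89% of all genes did. For Sesn2 it was -1.12 ± 0.34 (SE) on the log2 scale, with an adjusted p of 0.067 in limma. For Tsc1 it was -0.80 ± 0.26 (SE), with an adjusted p of 0.091 in limma. For Deptor it was 0.60 ± 0.28 (SE), with an adjusted p of 0.250 in limma, and was not called, although it was called in 7 alternative settings. A different BLM effect without Atg5 was thus not shown for any of these genes at an adjusted p under 0.05 without further scaling. With scaling to Cdh1 the term was -1.33 for Sesn2 (adjusted p = 0.0159 in limma) and -0.97 for Tsc1 (adjusted p = 0.0483 in limma). That scaling moved the median of all genes to -0.27. No other of the 20 alternative settings gave either gene an adjusted p under 0.05 in limma. All 4 groups enter the interaction, including the Atg5-/- AT2-PBS libraries with transcripts of other cells, and 6 of 7 leukocyte and 7 of 7 macrophage markers were called lower in it.

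**Figure D3:**
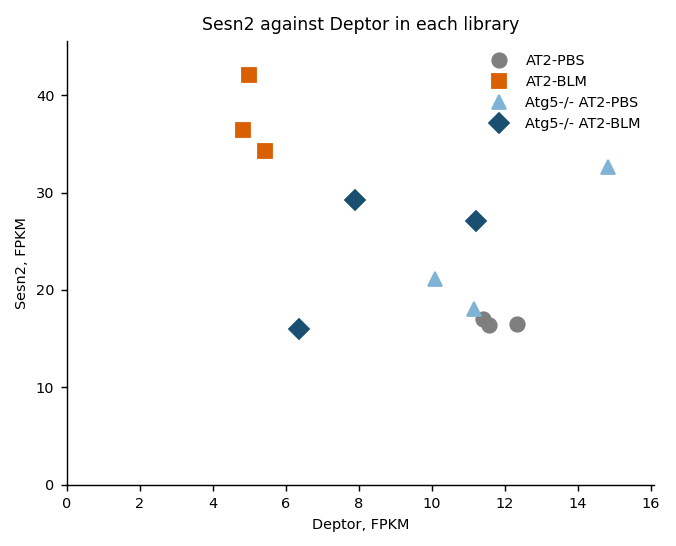
Sesn2 against Deptor, both in FPKM on linear axes from 0, in the 12 libraries, with a symbol for each group. The 3 AT2-BLM libraries lie apart at high Sesn2 and low Deptor, with a Sesn2 to Deptor ratio of 6.32 to 8.44, and the Atg5-/- AT2-BLM libraries have ratios of 2.41 to 3.71, between those of AT2-BLM and of the PBS groups, while their Sesn2 values overlap with those of Atg5-/- AT2-PBS.

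The ratio of Sesn2 to Deptor within a library does not depend on a scaling factor for the library. It was 1.34 to 1.49 in AT2-PBS, 6.32 to 8.44 in AT2-BLM, 1.62 to 2.20 in Atg5-/- AT2-PBS and 2.41 to 3.71 in Atg5-/- AT2-BLM. The 4 ranges did not overlap. This is a description, since the pair was put together after the values of both genes were seen. It shows unequal change of the 2 transcripts and does not say which of them moved.

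The kinase and its partner raptor were low in every group. Mtor lies on chromosome 4 (147822720 to 147931792, plus strand, mm9) and was at 1.73, 3.48 and 1.16 FPKM in AT2-PBS, 1.75, 1.27 and 2.21 in AT2-BLM, and 1.63, 2.12 and 1.69 in Atg5-/- AT2-PBS. The AT2-PBS libraries alone spanned the range of AT2-BLM, and the log2 change with BLM in wild type was -0.13 (95% confidence interval -0.67 to 0.40). Rptor, on chromosome 11 (119464219 to 119760890, plus strand), was at 1.37, 2.05 and 0.98 FPKM in AT2-PBS, 1.03, 1.56 and 1.59 in AT2-BLM, 0.61, 1.24 and 2.09 in Atg5-/- AT2-PBS and 1.41, 1.49 and 1.60 in Atg5-/- AT2-BLM. Its change with BLM in wild type was -0.03 (95% confidence interval -0.56 to 0.50). Neither gene was called in any of the 5 comparisons, and both spread widely between libraries of 1 group.

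Tsc2 encodes tuberin, the GTPase-activating subunit that acts on Rheb and is phosphorylated by both Akt and AMPK. It lies on chromosome 17 (24732882 to 24769574, minus strand) and was at 9.66, 10.1 and 7.32 FPKM in AT2-PBS, 6.80, 9.42 and 12.0 in AT2-BLM, 5.19, 5.45 and 8.93 in Atg5-/- AT2-PBS and 8.93, 5.96 and 11.5 in Atg5-/- AT2-BLM. All groups overlapped, and no comparison called it with all libraries. It was called lower in Atg5-/- AT2-PBS against AT2-PBS with quantile normalization (-0.59) and without Atg5-/- AT2-PBS replicate 3 (-0.65), against -0.44 in the fit of all libraries. It was called higher in Atg5-/- AT2-BLM against Atg5-/- AT2-PBS without Atg5-/- AT2-BLM replicate 2 (0.60), against 0.37 with it. The ratio of Tsc2 to Tsc1 was 7.11 to 14.4 in AT2-PBS, 6.47 to 7.83 in AT2-BLM and 9.22 to 10.9 in Atg5-/- AT2-BLM, and 2.91 to 5.16 in Atg5-/- AT2-PBS. The Atg5-/- AT2-PBS libraries were thus below the other 9 in this ratio, which sets a gene at about 1 FPKM against one several times higher.

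The AMPK catalytic subunits, Prkaa1 for alpha1 and Prkaa2 for alpha2, did not pass the test in any comparison. Prkaa1, on chromosome 15 (5093861 to 5131899, plus strand), was at 2.73, 3.55 and 1.65 FPKM in AT2-PBS and 2.52, 2.22 and 2.82 in AT2-BLM, and at 1.87, 2.06 and 2.81 in Atg5-/- AT2-PBS and 2.50, 1.77 and 2.48 in Atg5-/- AT2-BLM. Prkaa2, on chromosome 4 (104702479 to 104782495, minus strand), was at 2.04, 1.42 and 0.94 FPKM in AT2-PBS and 0.77, 0.98 and 1.75 in AT2-BLM, and at 1.11, 1.64 and 1.49 in Atg5-/- AT2-PBS and 1.71, 1.02 and 0.94 in Atg5-/- AT2-BLM. Prkaa1 was above Prkaa2 in all 12 libraries, by 1.26 to 3.26 times. With BLM in wild type the log2 change was -0.02 for Prkaa1 (95% confidence interval -0.49 to 0.46) and -0.19 for Prkaa2 (-0.69 to 0.31), intervals that include falls of 1.4-fold. Rheb lies on chromosome 5 (24308641 to 24348442, minus strand), and at 43.4, 42.4 and 35.3 FPKM in Atg5-/- AT2-PBS it overlapped with AT2-PBS.

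Ddit4 encodes REDD1, which releases the brake that 14-3-3 proteins place on the TSC complex and is induced by hypoxia, glucocorticoids and DNA damage. It lies on chromosome 10 (59412423 to 59414518, minus strand) and was at 1.82, 1.94 and 3.14 FPKM in AT2-PBS, 2.72, 3.02 and 2.95 in AT2-BLM, 0.94, 2.82 and 2.65 in Atg5-/- AT2-PBS and 2.34, 4.11 and 1.70 in Atg5-/- AT2-BLM. All groups overlapped, and the change with BLM in wild type was 0.26 (95% confidence interval -0.38 to 0.91). Its paralogue Ddit4l, a further inhibitor of mTORC1, was at 1.29, 0.94 and 1.09 FPKM in AT2-PBS, and its AT2-BLM values were 8.88, 6.34 and 4.66 FPKM. It rose by 1.82 ± 0.34 (SE) on the log2 scale (adjusted p = 0.0054 in limma). With 2.00, 3.35 and 2.62 FPKM, Atg5-/- AT2-BLM lay below all AT2-BLM libraries (-1.04 ± 0.34, adjusted p = 0.607 in limma).

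Around the 10 genes, 7 lists of the wider pathway held 95 genes, 83 of them tested. In AT2-BLM against AT2-PBS 15 were called higher and 8 lower (9 and 6 with an adjusted p under 0.05), 27.7% of the list beside 28.4% of all genes, with a median log2 change of 0.06 beside 0.17. The split of calls depended on the scaling: it was 8 higher and 14 lower with quantile normalization, 9 and 15 with median-ratio scaling and 7 and 12 with scaling to Cdh1. Over all genes it was 2202 higher and 829 lower, and 1319 and 1373 with quantile normalization. Without AT2-BLM replicate 3 the count of genes called higher in the list was 10. For AT2-BLM against AT2-PBS, the genes named in the next paragraphs were called in the same direction under all 3 of those scalings unless a loss is stated.

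The counts by list stand beside 28.4% of all genes called in AT2-BLM against AT2-PBS, 20.6% higher and 7.77% lower. Among the stress-induced inhibitors, 3 of 6 (50%) rose in AT2-BLM: Ddit4l, Sesn2 and Trib3, the pseudokinase that binds Akt, by 0.79 ± 0.25 (adjusted p = 0.048 in limma, and not called with scaling to Cdh1). Of 11 genes of the mTOR complexes, Deptor fell, and so did Prr5, a subunit of mTORC2 (-0.61 ± 0.24, adjusted p = 0.098 in limma), while its paralogue Prr5l rose by 1.30 ± 0.24 (adjusted p = 0.0058 in limma), from at most 0.64 FPKM in AT2-PBS to 1.91, 1.82 and 2.33 FPKM. These calls were 27.3% of the mTOR complex list. Of the 4 tested genes of the TSC-Rheb switch 1 (25%) rose, Tbc1d7, which encodes the smallest subunit of the TSC complex. It was at 4.33, 5.70 and 4.30 FPKM in AT2-PBS and 10.5, 8.42 and 11.9 FPKM in AT2-BLM (0.96 ± 0.21, adjusted p = 0.011 in limma). Tbc1d7 was also higher in Atg5-/- AT2-BLM than in Atg5-/- AT2-PBS, by 0.96 ± 0.21 (adjusted p = 0.014 in limma), but was not called there with scaling to Cdh1 (0.58).

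Of the 12 tested AMPK subunits and upstream kinases 2 were called higher and 0 lower, 16.7% of the list beside 28.4% of all genes. Prkab1, the beta1 subunit, rose from 37.1, 30.3 and 37.0 FPKM to 59.8, 82.7 and 70.0 FPKM in AT2-BLM (1.00 ± 0.20, adjusted p = 0.0074 in limma). Prkab1 was above both catalytic subunits in every library of these groups. In the insulin and PI3K input to Akt 2 of 11 genes were called lower and 0 higher, 18.2% of the list beside the same 28.4%. Irs2, an adaptor of the insulin receptor, was at 13.1, 5.88 and 18.0 FPKM in AT2-PBS and 3.83, 2.84 and 2.10 FPKM in AT2-BLM (-1.67 ± 0.33, adjusted p = 0.0075 in limma). Pik3r1, the regulatory subunit p85alpha, was at 2.59, 2.34 and 2.17 FPKM against 0.97, 0.85 and 1.10 FPKM (-0.77 ± 0.16, adjusted p = 0.0083 in limma).

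In the amino acid arm, with 22 tested genes, 5 were called higher and 2 lower, 31.8% of the list beside 28.4% of all genes. Rragd, one of the Rag GTPases that bring mTORC1 to the lysosome, rose by 0.91 ± 0.24 (adjusted p = 0.024 in limma). Fnip2, a partner of folliculin, fell by 0.89 ± 0.22 on the log2 scale (adjusted p = 0.019 in limma). Rraga, Lamtor3 and Lamtor1 were called higher with adjusted p values of 0.104, 0.060 and 0.053 in limma, and of these only Lamtor3 was still called under another scaling, the median-ratio one. Among 17 tested effectors 3 were called higher and 2 lower, 29.4% of the list. Eif4ebp1, the translation repressor 4E-BP1, rose from 16.9, 21.3 and 20.4 FPKM to 32.9, 33.4 and 53.9 FPKM (0.97 ± 0.22, adjusted p = 0.012 in limma). Acaca, the acetyl-CoA carboxylase that AMPK phosphorylates, fell from 7.48, 7.91 and 4.43 FPKM to 2.87, 2.39 and 2.01 FPKM (-1.13 ± 0.25, adjusted p = 0.012 in limma). Eif4e was called higher (0.62 ± 0.15, adjusted p = 0.018 in limma) and was not called under the other scalings.

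In Atg5-/- AT2-BLM against AT2-BLM, 4 of the 83 pathway genes were called higher (Acaca, Deptor and Irs2 among them) and 3 lower (Ddit4l, Lamtor3 and Sesn2), and none had an adjusted p under 0.05 in limma. The call of Lamtor3 was lost under quantile, median-ratio and Cdh1 scaling (-0.39, -0.45 and -0.33), and that of Ddit4l with Cdh1 scaling (-0.86). With 8.43% of the list called beside 5.16% of all genes, Acaca differed by 0.78 ± 0.25 and Irs2 by 1.09 ± 0.33 on the log2 scale. In Atg5-/- AT2-PBS against AT2-PBS 4 were called higher and 4 lower (9.64% of the list beside 19.3% of all genes), and with an adjusted p under 0.05 these were Eif4ebp1 (0.97) and Prr5l (0.84) higher and Prkag2, an AMPK gamma subunit (-0.58), and Srebf1 (-0.65) lower, of which the lower calls were lost with scaling to Cdh1. This split became 2 and 13 with quantile normalization and 12 and 0 with scaling to Cdh1. In BLM against PBS without Atg5 6 were called higher and 3 lower (10.8% of the list beside 18.4% of all genes), and 0 and 13 with scaling to Cdh1.

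Lists of known targets of some regulators of Sesn2 and Ddit4 (p53, ATF4, hypoxia and glucocorticoids) were counted in the same way. Targets of NRF2 were not counted. Of 9 tested p53 targets, 7 rose in AT2-BLM, all with an adjusted p under 0.05 in limma and under every scaling, with a median log2 change of 1.25 beside 0.17 for all genes, of which 20.6% were called higher. Phlda3, an Akt inhibitor and p53 target, was at 3.95, 4.43 and 4.62 FPKM in AT2-PBS, and its AT2-BLM values were 166, 135 and 155 FPKM. Sesn2 is itself on this list, and Sesn2 and Ddit4 are on the ATF4 list, so the counts are not independent of them. In Atg5-/- AT2-BLM against AT2-BLM 6 of the 9 were called lower (median -0.66, none with an adjusted p under 0.05 in limma), beside 3.12% of all genes called lower, with Phlda3 at 44.6, 64.9 and 54.2 FPKM. In the interaction 5 of the 9 p53 targets were called lower and 0 higher (median -1.12), beside 15.2% of all genes called lower. Of the 9, 4 had an adjusted p under 0.05 in limma there, beside 7.89% of all genes. Of 11 tested genes of the ATF4 list, 5 were called higher in AT2-BLM and 1 lower, Atf4 itself, 54.5% of the list beside 28.4% of all genes. In Atg5-/- AT2-BLM against AT2-BLM 3 of the 11 were called lower and 0 higher, 27.3% of the list beside 5.16% of all genes. None of the 11 had an adjusted p under 0.05 in limma there, and 2 were called lower under each of the other scalings. In the interaction 5 were called lower and 0 higher, 45.5% beside 20.2%, and 2 of the 11 had an adjusted p under 0.05 in limma. Ddit4 is also on the lists of hypoxia and glucocorticoid targets, of which 1 of 8 and 0 of 10 were called higher and 1 and 1 lower in AT2-BLM, 25% and 10% of the lists.

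**Figure D4:**
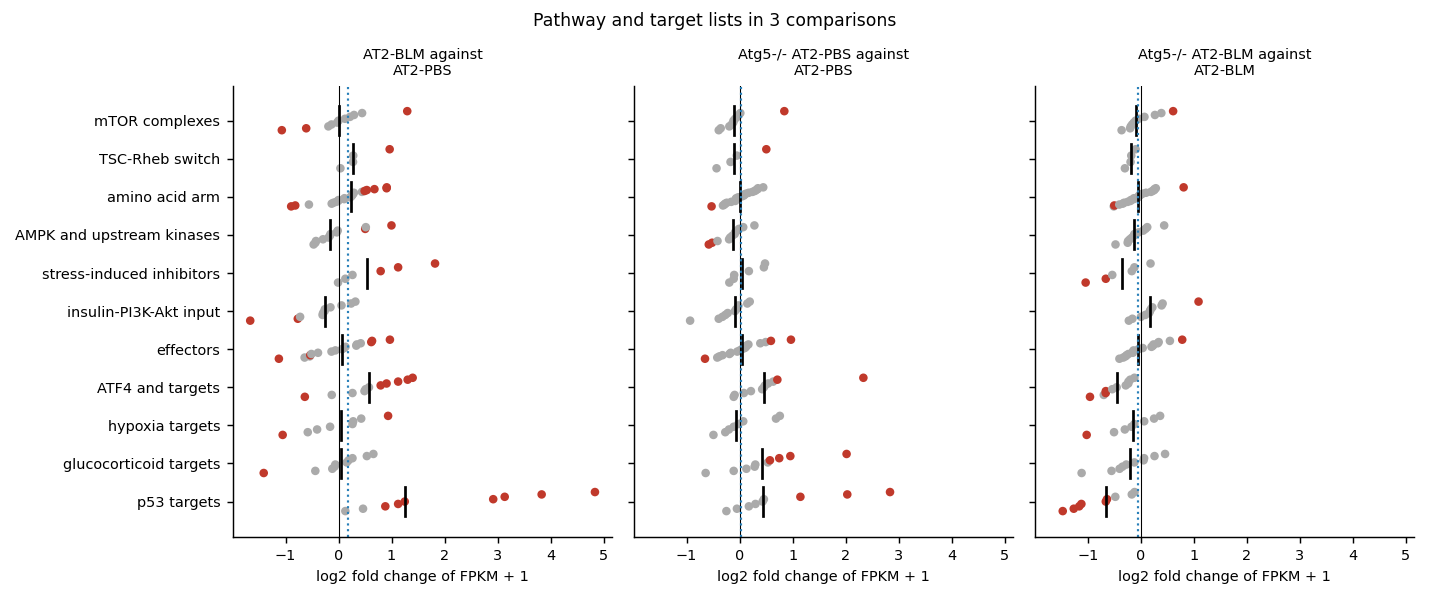
Log2 fold changes of FPKM + 1 of the tested genes (points) of 7 pathway lists and 4 target lists (rows) in 3 comparisons (panels), red where called, with the median of each list (black bar) and of all 10675 genes (dotted blue line). The p53 targets stand out in AT2-BLM against AT2-PBS with a median of 1.25, while the median of the insulin input (-0.26) lies below that of all genes (0.17).

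By the pathway map annotated in the deposited table, 112 genes of KEGG mTOR signaling and 97 of KEGG AMPK signaling were tested. In AT2-BLM against AT2-PBS 17 and 11 of the first were called higher and lower, and 14 and 9 of the second, 25% and 23.7% of the lists beside 28.4% of all genes. In Atg5-/- AT2-BLM against AT2-BLM the counts were 2 and 2 for mTOR signaling, with Deptor and Sesn2 among them, and 5 and 0 for AMPK signaling, 3.57% and 5.15% beside 5.16% of all genes.

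The pattern of each of 3 members over the 12 libraries was compared with that of every tested gene, as the root mean square difference of standardised log2(FPKM + 1). The genes nearest to Deptor were Kmt2e (0.303), Tril (0.327) and Ppp1r1b (0.328), where the median gene was at 1.43. Nearest to Sesn2 were Trim32 (0.347), Mrpl19 (0.355) and Ccdc97 (0.36), with a median of 1.22, and nearest to Rheb were Eps8l2 (0.301), Rangrf (0.321) and Carhsp1 (0.33), with a median of 1.24. These are the closest of 10675 genes over 12 libraries that share their group structure, and they are given as a description.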

How the data were processed

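RNA of sorted AT2 cells was sequenced in 12 libraries, 4 groups of 3. The authors deposited 1 table of FPKM values for 21878 genes with no counts. The submitters' processing notes list Trimmomatic 0.36, HISAT2 2.2.1.0, Cufflinks 2.2.1, HTSeq 0.9.1 and the build mm9, while the methods name STAR, so the aligner behind the values is not settled. The methods also name a DESeq normalization, and whether the deposited FPKM include it is not given in the sources used here. If they do not, FPKM is a share of each library, and a few very abundant genes lower all others.

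Groups and replicate numbers were taken from the sample labels. The 10675 genes with at least 1 FPKM in at least 3 samples were fitted with limma 3.58.1 (R 4.3.3) on log2(FPKM + 1), 12 samples in 1 fit with a mean-variance trend, and p-values were adjusted by the Benjamini-Hochberg method. p-values measure the spread between these samples, which may be technical. A gene was called at p under 0.05 and a fold of at least 1.4. The method was tested on simulated data. Drawings were made with matplotlib 3.10.9. Promoters were taken from RefSeq (GRCm38.p6) and gene positions from the mm9 annotation.

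The members and lists were chosen with earlier results of these data known. Named were all members and, per list and comparison, the genes with an adjusted p under 0.05 and at most 3 others with the largest change among those called without it, with the markers, and 3 likest genes for each of the 3 members with the smallest p in AT2-BLM against AT2-PBS. Phlda3 is an example from the p53 list. 1 gene that the rule names is not reported here. Alternatives were a pseudocount of 0.1, no filter, quantile, median-ratio and Cdh1 scaling, a replicate block, a fit of the compared groups alone, no trend, a Y-linked covariate, an adjusted call rule and leaving out each library. Counts over the 7 pathway lists under these settings were added after seeing the data.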

Additional observations from a re-analysis of the deposited data

Results flagged for a closer look

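The estimated effect of BLM on Sesn2 differed between Atg5-/- and wild-type AT2 cells by -1.12 ± 0.34 (SE) on the log2 scale in the interaction term. This met the unadjusted criterion but not an adjusted p under 0.05 (adjusted p = 0.067 in limma). Sesn2 rose by 1.12 in wild type and differed by 0.01 in Atg5-/- cells. Over the settings that leave out 1 library the difference ran from -1.29 to -0.86. With scaling to Cdh1 it was -1.33 (adjusted p = 0.0159 in limma).

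The estimated effect of BLM on Tsc1 differed by -0.80 ± 0.26 (SE) in the same term. This met the unadjusted criterion but not an adjusted p under 0.05 (adjusted p = 0.091 in limma). Tsc1 changed by 0.27 in wild type, which was not called, and by -0.53 in Atg5-/- cells. The difference ran from -0.94 to -0.68 when 1 library was left out, and it was -0.54 and no longer called with quantile normalization. With scaling to Cdh1 it was -0.97 (adjusted p = 0.0483 in limma). Both differences include the Atg5-/- AT2-PBS libraries, in which markers of leukocytes, macrophages, fibroblasts and liver were higher, and the part of those transcripts was not tested.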

How the results depend on the processing

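Of 800 values of single members under alternatives, 682 kept their direction and their side of the criterion, 90 changed sign, 18 passed it newly and 10 lost it. The files give no counts, so depth cannot be used to bound the values of the 6 genes near 1 to 3 FPKM. The causes of the changes below were not tested.

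With an adjusted p under 0.05 in place of the unadjusted p, limma called 0 members for Atg5 loss with PBS (1 unadjusted), 0 for Atg5 loss with BLM (2 unadjusted), 0 for BLM in Atg5-/- (1 unadjusted) and 0 for the interaction (2 unadjusted), and of the pathway genes 15, 4, 0, 1 and 2 in the 5 comparisons beside 23, 8, 7, 9 and 13 unadjusted. For Atg5 loss with PBS, members called were 0 with median-ratio scaling and 2 with Cdh1 scaling (Sesn2 and Tsc1), and pathway genes 15 with quantile normalization. For BLM in Atg5-/-, members called were 2 with a pseudocount of 0.1, median-ratio or Cdh1 scaling (Deptor and Tsc1) and 0 with quantile normalization. In the interaction 8 pathway genes were called with Cdh1 scaling.

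When 1 library was left out, members called were 2 to 2 for BLM in wild type, 0 to 2 for Atg5 loss with PBS (0 without AT2-PBS replicate 2, 2 without Atg5-/- AT2-PBS replicate 3), 1 to 2 for Atg5 loss with BLM (1 without either of Atg5-/- AT2-BLM replicates 1 and 2 or without replicate 2 of AT2-BLM), 1 to 2 for BLM in Atg5-/- (2 without Atg5-/- AT2-PBS replicate 1 or 2 or Atg5-/- AT2-BLM replicate 1) and 2 to 3 for the interaction. Pathway genes called were 19 to 23, 6 to 10, 6 to 11 (11 without AT2-BLM replicate 1), 3 to 11 (3 without Atg5-/- AT2-BLM replicate 3) and 10 to 15.

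Signs turned in genes that were not called. For BLM in wild type, Rptor became 0.0042 with the Y-linked covariate, and Tsc2 -0.16, -0.12 and -0.18 with quantile, median-ratio and Cdh1 scaling. For Atg5 loss with PBS, Cdh1 scaling gave Mtor 0.20, Rptor 0.10, Rheb 0.33, Prkaa1 0.15, Prkaa2 0.24 and Ddit4 0.15, the Y-linked covariate Mtor 0.039 and Deptor -0.059, and Deptor was -0.11 with quantile and -0.030 with median-ratio scaling. For Atg5 loss with BLM, Cdh1 scaling gave Tsc2 0.055 and Ddit4 0.033. For BLM in Atg5-/-, Cdh1 scaling gave Mtor -0.086, Rptor -0.083, Rheb -0.31, Tsc2 -0.033, Prkaa1 -0.33, Ddit4 -0.036 and Sesn2 -0.44, median-ratio scaling Prkaa1 -0.051 and Sesn2 -0.067, and quantile normalization Prkaa2 0.023 and Sesn2 -0.011. In the interaction, Rheb was 0.11 with quantile normalization, Prkaa1 -0.15 and Prkaa2 -0.11 with Cdh1 scaling, and Ddit4 0.018, 0.26 and 0.070 with a pseudocount of 0.1, quantile and median-ratio scaling.

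When 1 library was left out, the log2 values of these genes spanned 0. For BLM in wild type they were Mtor -0.37 to 0.16, Rptor -0.17 to 0.14, Tsc2 -0.14 to 0.23 and Prkaa1 -0.23 to 0.16. For Atg5 loss with PBS they were Mtor -0.32 to 0.21, Rptor -0.36 to 0.12, Rheb -0.11 to 0.037, Prkaa1 -0.35 to 0.039, Prkaa2 -0.17 to 0.15, Deptor -0.14 to 0.12 and Ddit4 -0.29 to 0.20. For Atg5 loss with BLM they were Rptor -0.045 to 0.13, Tsc2 -0.29 to 0.13, Prkaa2 -0.10 to 0.23 and Ddit4 -0.38 to 0.084. For BLM in Atg5-/- they were Rptor -0.073 to 0.40, Prkaa1 -0.081 to 0.12, Ddit4 -0.061 to 0.46 and Sesn2 -0.17 to 0.27. For the interaction they were Rptor -0.046 to 0.43, Prkaa1 -0.16 to 0.23, Prkaa2 -0.10 to 0.24 and Ddit4 -0.32 to 0.20.

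With the replicate block the members called were 2, 1, 2, 1 and 2 in the 5 comparisons and the pathway genes 23, 8, 7, 8 and 13, and no call of a member changed. Adjusted p with the block was 0.0141 for Sesn2 and 0.00774 for Deptor in BLM in wild type. Correlations of the deviations of same-numbered libraries from their group means were -0.239 to 0.227 over the 4 comparisons. They were 0.0451 to 0.191 for AT2-BLM against AT2-PBS and 0.00357 to 0.227 for Atg5-/- AT2-BLM against Atg5-/- AT2-PBS. For Atg5 loss they were -0.239 to -0.0094 with PBS and -0.163 to 0.114 with BLM. These values do not settle whether same-numbered libraries were handled together, and the sample titles give only a number. For AT2-PBS replicate 3 the number in the sample description differs from that in the title, and the title was used.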
